A study of Mus musculus with 531 samples.

Results

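Dnmt3a, Dnmt3b and Dnmt3l, 3 genes of the mouse de novo DNA methyltransferase family, were followed through single cells of embryos at embryonic day (E) 4.5, E5.5 and E6.5. They were found by symbol among the 22084 genes of the count table, and their levels were read in every cell with at least 50000 reads on genes and 2000 detected genes, by stage, embryo and lineage. Levels are given as log2(CPM + 1), where CPM is reads of the gene per 1000000 reads on genes in that cell. In cells of the E4.5 epiblast lineage Dnmt3l was the most abundant of the 3 per unit of transcript length in 4 of 5 embryos, and in the E6.5 lineages most reads of the 3 genes belonged to Dnmt3b.

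DNMT3A and DNMT3B are the enzymes that place methyl groups on unmethylated CpG dinucleotides. DNMT3L has no catalytic activity of its own and acts as a partner that stimulates DNMT3A and DNMT3B. Rodents also have Dnmt3c, a copy of Dnmt3b known from the male germline, which was not analysed here, and reads common to Dnmt3b and Dnmt3c make the level of Dnmt3b uncertain to that extent. The genome of the preimplantation embryo is poorly methylated, and these enzymes remethylate it around implantation as the epiblast leaves naive pluripotency. DNMT1 with UHRF1 copies existing methylation after replication, and the TET enzymes with TDG take part in its removal.

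The cells came from C57Bl/6Babr mouse embryos for which the labels give no treatment and no genetic change. RNA of single cells was amplified by the Smart-seq2 protocol, which reads full transcripts and carries no molecular identifiers, so that intervals below cover counting error alone. The labels name 5 E4.5 embryos, 1 E5.5 embryo and 2 E6.5 embryos, and embryos with the same number at different stages are different animals. The methods of the study give fewer E4.5 embryos than the labels, which were followed here. If 2 of the labelled E4.5 embryos were 1 animal, the exact permutation tests over E4.5 embryos could not go below p = 0.125. By the methods of the study the trophectoderm was removed at E4.5, and the visceral endoderm and extraembryonic tissue were dissected away at the later stages.

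Of 264 cells, 217 passed the read and gene minimum, namely 75 of 91 E4.5 cells, 59 of 80 E5.5 cells and 83 of 93 E6.5 cells. Kept cells had between 112008 and 8904445 reads on genes. A kept E4.5 cell had a median of 6985 detected genes, a kept E5.5 cell 5242 and a kept E6.5 cell 9304. Each of the later stages carried a prefix of its own in the sample titles, so stage and prefix cannot be told apart, and E5.5 rests on 1 embryo.

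Lineages were called by clustering the cells of each stage on 48 marker genes, none of them a member of the family. At E4.5 this gave 19 epiblast-like cells, with 8 of 11 epiblast markers raised, and 56 endoderm-like cells, with 14 of 17 endoderm markers raised. Embryos 1 to 5 held 4, 4, 4, 5 and 2 of the epiblast-like cells. At E5.5 there were 51 epiblast-like and 8 endoderm-like cells, although the methods name the visceral endoderm as removed. All 8 of these endoderm-like cells carried cell numbers divisible by 12, and no other kept E5.5 cell did.

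At E6.5 there were 24 endoderm-like cells, 23 mesoderm-like cells, all of embryo 2, and 2 clusters with less clear markers. The endoderm-like cluster had 14 of 17 endoderm markers raised and also 5 of 10 trophectoderm markers, with a median summed level of that list of 1149 CPM per cell, against 664 CPM in cluster 3 and 633 CPM in mesoderm-like cells. The mesoderm-like cluster had 8 of 10 mesoderm, 5 epiblast and 5 endoderm markers raised. Cluster 3, with 17 cells, had 8 of 11 epiblast markers raised but also 4 of 10 trophectoderm and 2 of 17 endoderm markers, and its 10 leading genes held a trophectoderm marker and no epiblast marker. It is therefore called by its number. Cluster 2, with 19 cells, had no marker raised, and 12 of its cells formed an epiblast-like part when 1 more cluster was allowed. The endoderm genes Ttr and Apoa1 were read in all E6.5 cells of every group. The mean level of Ttr was 10.05 in cluster 3, 8.25 in the epiblast-like part of cluster 2, 8.91 in mesoderm-like and 12.02 in endoderm-like cells. The part of such shared endoderm RNA in the levels of the 3 genes was not tested.

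The 3 genes lie on different chromosomes, all on the forward strand (GRCm38, GENCODE vM21 annotation). Dnmt3a spans chr12:3806007-3914443, Dnmt3b chr2:153649450-153687730 and Dnmt3l chr10:78041947-78063622. CpG dinucleotides, the substrate of the family, are unevenly spread over the starts of its own genes. The 250 bases before a RefSeq transcript start (GRCm38.p6) are printed below for the start of each gene with the most CpGs, 5′ to 3′ on the forward strand, with every CG in capitals. The windows are chr12:3806910-3807159, chr2:153649199-153649448 and chr10:78042037-78042286.
Dnmt3a: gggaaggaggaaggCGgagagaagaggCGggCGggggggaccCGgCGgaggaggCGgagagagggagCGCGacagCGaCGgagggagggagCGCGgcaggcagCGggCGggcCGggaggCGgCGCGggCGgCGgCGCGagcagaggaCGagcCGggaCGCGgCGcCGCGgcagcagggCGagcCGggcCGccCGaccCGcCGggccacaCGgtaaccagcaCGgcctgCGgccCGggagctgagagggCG
Dnmt3b: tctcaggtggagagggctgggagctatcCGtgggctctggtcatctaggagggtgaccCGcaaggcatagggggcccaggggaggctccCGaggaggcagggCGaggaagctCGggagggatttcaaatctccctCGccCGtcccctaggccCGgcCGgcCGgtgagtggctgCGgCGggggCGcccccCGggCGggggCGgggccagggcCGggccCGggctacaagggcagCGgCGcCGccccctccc
Dnmt3l: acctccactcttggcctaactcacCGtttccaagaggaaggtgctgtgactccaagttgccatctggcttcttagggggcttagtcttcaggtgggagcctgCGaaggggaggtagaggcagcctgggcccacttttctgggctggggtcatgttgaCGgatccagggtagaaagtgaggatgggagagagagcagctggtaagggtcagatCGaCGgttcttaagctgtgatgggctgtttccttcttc
The windows held 40 CpGs for Dnmt3a, 21 for Dnmt3b and 5 for Dnmt3l, beside a median of 6 over 32851 such windows of the genome, of which 92.1% held at least 1. The letters searched were CG, which read the same on both strands. All 3 annotated Dnmt3l starts had between 3 and 5 CpGs, while the 3 of Dnmt3a had between 15 and 40.

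At E4.5 the lineages differed in Dnmt3l, and the summed level was lower in endoderm-like cells of every embryo. The reads of all cells of a lineage in an embryo were summed and expressed as CPM. In embryos 1 to 5 the summed level of Dnmt3l was 653, 498, 557, 230.3 and 553 CPM in epiblast-like cells. In the endoderm-like cells of the same embryos it was 327, 217, 273, 82.1 and 199.9 CPM. The epiblast-like sum was thus 1.998 to 2.805 times as high as the endoderm-like sum of the same embryo, while the groups overlapped across embryos, because the epiblast-like value of embryo 4 lay below the endoderm-like values of embryos 1 and 3. Without the epiblast-like cell with the most Dnmt3l reads the ratios of embryos 1 to 5 were 1.48, 1.76, 1.85, 2.31 and 1.59. In embryo 5 that cell was 1 of 2 and held 795 of 1142 reads, and without it the sum was 318 CPM.

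By the quasi-likelihood test of edgeR, adjusted after Benjamini-Hochberg over all genes and with the embryo as a block, Dnmt3l was lower in endoderm-like cells by a log2 fold change of -1.24 (SE 0.36, adjusted p = 0.029, 4 epiblast-like and 5 endoderm-like sums, since embryo 5 had too few epiblast-like cells). Dnmt3l was the 1 member called in this comparison, in which 8.68% of the 12541 genes tested were called. Without the replicate block the same test gave -1.17 (adjusted p = 0.0929), and over 21 alternatives the value stayed between -1.38 and -1.12, with adjusted p between 0.0015 and 0.162 and a call in 14. Leaving out embryo 1, 2, 3 or 4 gave -1.27, -1.23, -1.24 and -1.13, each without a call. The value was -1.13 within the embryos of label prefix P1, which alone gave no call, and -1.36 within those of prefix P2. The mean over cells fell from 8.76 ± 0.56 to 6.91 ± 1.03 (SD over 5 embryos), a difference of -1.86 ± 0.61 that was negative in 5 of 5 embryos. With lineages called by Leiden clusters it was -1.40 ± 1.53 and negative in 4 of 5 embryos, with 0.82 in the other one. An exact sign-flip permutation test over embryos gave p = 0.0625 (two-sided, adjusted p = 0.1875), the smallest p that 5 embryos allow.

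Dnmt3a and Dnmt3b showed no such common direction at E4.5. In embryos 1 to 5 the Dnmt3a sum was 836, 403, 244, 204 and 372 CPM in epiblast-like cells. The endoderm-like sums were 340.3, 744, 241, 505 and 207 CPM. Dnmt3a was therefore higher in the endoderm-like cells of embryos 2 and 4, lower in embryos 1 and 5, and almost equal in embryo 3. In embryo 5, 1 of the 2 epiblast-like cells held 583 of the 769 Dnmt3a reads, and without it that sum was 170 CPM, below the endoderm-like sum. For Dnmt3b the epiblast-like sums were 508, 255, 261, 416 and 444 CPM. The endoderm-like sums were 554, 590.1, 439, 439 and 342 CPM, higher in 4 of 5 embryos, though by little in embryos 1 and 4. The exception, embryo 5, rests on 1 epiblast-like cell with 708 of 917 Dnmt3b reads, without which the sum was 191 CPM. Without the endoderm-like cell with the most Dnmt3b reads, the endoderm-like sums of embryos 1 and 4 fell to 484 and 359 CPM, below the epiblast-like ones. By edgeR's quasi-likelihood test the log2 difference was 0.18 (SE 0.39, adjusted p = 0.849) for Dnmt3a and 0.48 (SE 0.31, adjusted p = 0.388) for Dnmt3b. Neither difference exceeded the spread between embryos.

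**Figure D1:**
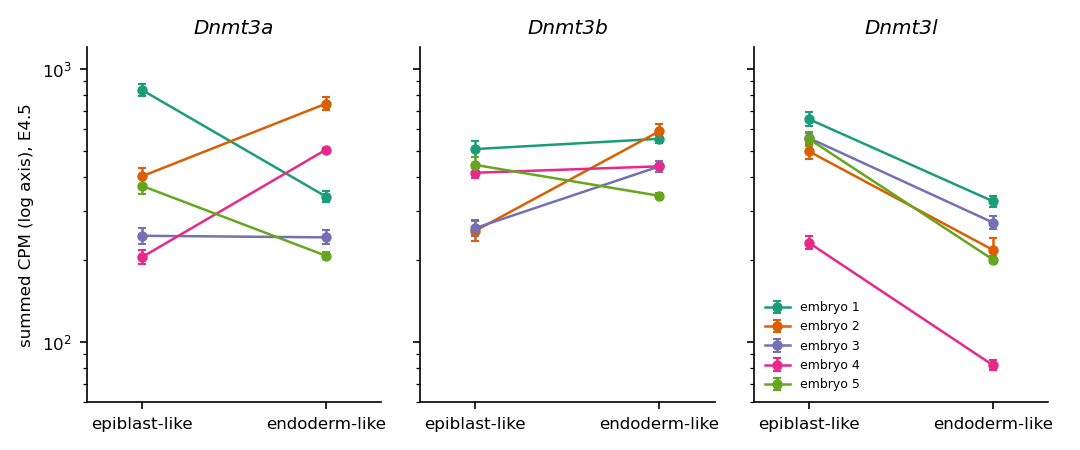
Summed CPM (log axis) of each gene in both lineages of the 5 E4.5 embryos (epiblast-like left, endoderm-like right), 1 line per embryo, with error bars for the 95% exact Poisson interval of the reads. All 5 lines fall for Dnmt3l, from 230.3 to 653 CPM down to 82.1 to 327 CPM, while the lines of Dnmt3a cross.

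The lower Dnmt3l of endoderm-like cells also showed in its share of the reads of the 3 genes, where sequencing depth cancels. Dnmt3l took 39.1% ± 9.75 (SD, n = 5 embryos) of these reads in E4.5 epiblast-like and 20.8% ± 9.25 in endoderm-like cells. The share was lower in the endoderm-like cells of 5 of 5 embryos, by 18.3 percentage points on average (exact sign-flip permutation test, p = 0.0625, adjusted p = 0.1875). The share of Dnmt3b was 30.7% ± 10.9 in epiblast-like and 43.6% ± 3.35 in endoderm-like cells, higher in 4 of 5 embryos (exact p = 0.125, adjusted p = 0.1875). Dnmt3a took 30.2% ± 8.02 and 35.6% ± 11.9 (exact p = 0.438).

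A set of 5 endoderm-like cells at E4.5 carried both epiblast and endoderm markers. Their mean Dnmt3l level was 8.32, against 6.32 in the other 51 endoderm-like cells and 8.69 over the 19 epiblast-like cells. Dnmt3b was at 8.82 in them and 8.16 in the other endoderm-like cells, and Dnmt3a at 6.78 and 8.31. The lower Dnmt3a rests on 1 cell of embryo 5 with 1 Dnmt3a read, without which the mean of the other 4 was 8.32. The 5 cells were found in the clustering and their levels are given as a description.

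Aire, a gene best known for its role in the thymus, overlaps the start of Dnmt3l on the opposite strand over 1664 bases, of which 67 are exonic in both genes. Smart-seq2 keeps no strand and the strand setting of the counting is not given in the sources used here, so reads in those exonic bases cannot be assigned to a strand. Aire had reads in 18 of 19 E4.5 epiblast-like cells and in 12 of 56 endoderm-like cells. Its summed level at E4.5 was 89.1 to 337 CPM in the epiblast-like sums and 1.45 to 16.2 CPM in the endoderm-like sums. Dnmt3l was read without Aire in 39 of the 56 endoderm-like cells. Across cells Aire and Dnmt3l had Pearson r = 0.47 in 19 E4.5 epiblast-like cells and 0.09 in 51 E5.5 epiblast-like cells, as a description, since cells of an embryo share depth and RNA quality.

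From E4.5 epiblast-like cells to E6.5 cluster 3, Dnmt3b rose and Dnmt3l fell. The Dnmt3b sum was 255 to 508 CPM in the 5 E4.5 epiblast-like sums, 1695 CPM at E5.5, and 1397 and 1772 CPM in cluster 3 of the 2 E6.5 embryos. The Dnmt3l sum went from 230.3 to 653 CPM at E4.5 to 50.4 CPM at E5.5 and to 4.43 and 8.92 CPM in cluster 3. No later sum lay within the E4.5 range of either gene, and the share of all genes for which this holds was not counted.

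Between E4.5 epiblast-like cells and E6.5 cluster 3, Dnmt3b rose by a log2 fold change of 2.13 (SE 0.31, adjusted p = 0.000808) and Dnmt3l fell by 6.17 on the log2 scale (SE 0.58, adjusted p = 1.9e-05, edgeR's quasi-likelihood test). Both calls were kept in all 18 alternatives, with 1.95 to 2.56 for Dnmt3b and -6.71 to -5.01 for Dnmt3l. Those without the both-marker cells, embryo 5 of E4.5 or the deepest endoderm-like cell of E6.5 embryo 2 repeat the same fit. They could not change a call here or in the comparisons with E5.5 below. The difference in Dnmt3a was -0.79 (SE 0.47, adjusted p = 0.38). So 2 of the 3 members were called, in a comparison that called 3.12% of 12922 genes. The E6.5 cells compared here also carried trophectoderm markers, with a summed level of that list of 345 to 1423 CPM per cell in cluster 3 against 0 to 158 CPM in E4.5 epiblast-like cells. With the epiblast-like part of cluster 2, at 13.4 to 773 CPM of that list, in place of cluster 3, both calls held.

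The E5.5 values come from 1 embryo, so the spread at that stage was not measured, and each test with E5.5 assumes that it varies like the replicated groups. Against E4.5 epiblast-like cells, its epiblast-like cells had a log2 difference of 2.33 (SE 0.36, adjusted p = 0.00616) in Dnmt3b, -3.16 (SE 0.66, adjusted p = 0.04) in Dnmt3l and 0.48 (SE 0.57, adjusted p = 0.87) in Dnmt3a by edgeR's quasi-likelihood test. Under that assumption 2 members were called, beside 0.596% of 12922 genes. The Dnmt3b call was kept in all 17 alternatives. The Dnmt3l value stayed between -3.40 and -2.99 with a call in 11 of 17, and it was lost without embryo 1 (-3.00), embryo 2 (-3.14) or embryo 3 (-3.08) of E4.5.

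Between E5.5 epiblast-like cells and E6.5 cluster 3, the Dnmt3l sums were 50.4 CPM in 1 embryo and 4.43 and 8.92 CPM in the other 2. The log2 difference between cluster 3 and the E5.5 epiblast-like cells was -3.02 (SE 0.56, adjusted p = 0.0288) in Dnmt3l, -0.19 (SE 0.45, adjusted p = 1) in Dnmt3b and -1.27 (SE 0.62, adjusted p = 0.963) in Dnmt3a by edgeR's quasi-likelihood test. This 1 call rests on the same assumption and stands beside 0.317% of 12922 genes called. The Dnmt3l call held in 9 of 16 alternatives, with values from -3.55 to -1.91. Those without the both-marker cells, embryo 5 of E4.5 or the deepest endoderm-like cell of E6.5 embryo 2 repeat this fit and count as held. Without embryo 2 or 3 of E4.5 the value was -3.07 and -3.02, and without embryo 1 of E6.5 it was -2.68, all without a call.

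**Figure D2:**
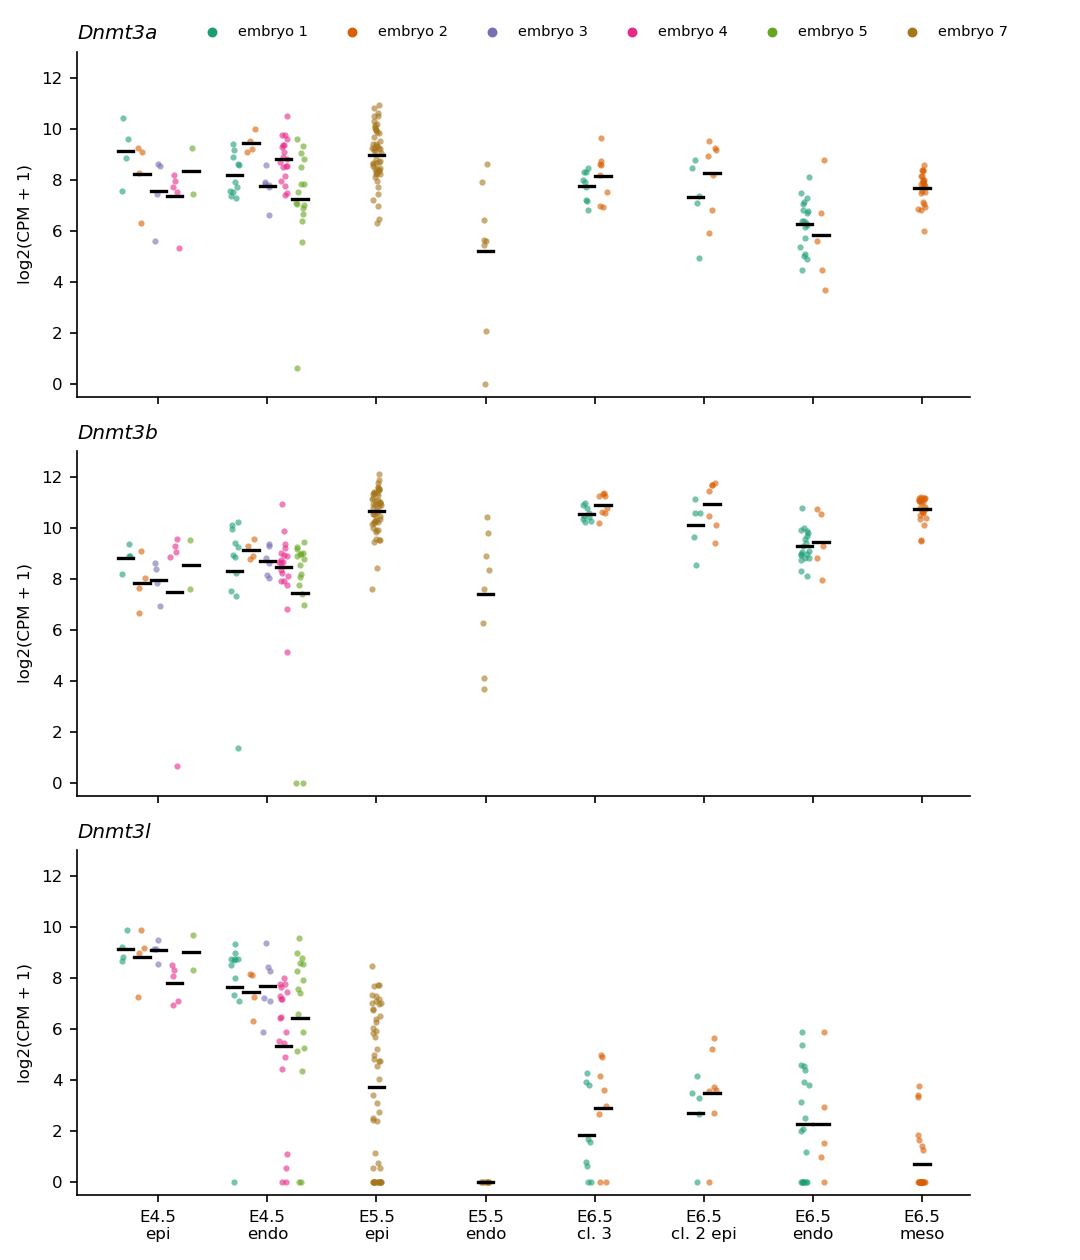
Level of each gene, log2(CPM + 1), in every kept cell of the named groups (points, colored by embryo number within the stage), with black bars at the embryo means; epi, epiblast-like; endo, endoderm-like; meso, mesoderm-like; cl., cluster. Dnmt3b is highest in E5.5 and E6.5 cells other than endoderm, and Dnmt3l is high at E4.5 and at 0 in many later cells.

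Within the E5.5 embryo all 3 genes were higher in the 51 epiblast-like than in the 8 endoderm-like cells. The sums were 544 and 89.5 CPM for Dnmt3a, a ratio of 6.08 (95% counting interval 5.76 to 6.41). For Dnmt3b they were 1695 and 343 CPM, a ratio of 4.94 (4.81 to 5.08). Dnmt3l had 3992 reads in the epiblast-like sum and none among 15648921 reads in the endoderm-like sum, which makes it at least 263-fold higher in the epiblast-like sum when 3 reads over the group are taken as the limit of a count of 0. A single endoderm-like cell held 681 of the 1400 Dnmt3a reads and 2341 of the 5363 Dnmt3b reads. Without it the endoderm-like sums were 51.6 and 217 CPM and the ratios 10.5 and 7.81. The endoderm-like cells had a median of 4224 detected genes and the epiblast-like cells 5599. With the minimum raised to 200000 reads and 4000 genes, the mean level in the 4 endoderm-like cells left was 7.15 for Dnmt3a and 9.04 for Dnmt3b, against 5.22 and 7.39 in all 8, so the gap to the epiblast-like cells, then at 9.42 and 10.86, became smaller. The part of gene detection in the difference was not tested. With 1 embryo these are values of that embryo without a test. The position of all 8 endoderm-like cells at cell numbers divisible by 12 goes with the difference, and its part in it was not tested.

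At E6.5 the summed CPM of the 2 enzymes was lower in endoderm-like cells than in cluster 3 of both embryos. Dnmt3a was at 198 and 283 CPM in cluster 3 of embryos 1 and 2 and at 76.8 and 84.04 CPM in their endoderm-like cells. Dnmt3b was at 1397 and 1772 CPM in cluster 3 and at 573 and 921 CPM in endoderm-like cells. The groups did not overlap for either gene, and the share of all genes without overlap between so few sums was not counted. A single endoderm-like cell, the deepest of embryo 2, held 9360 of the 13469 Dnmt3b reads of embryo 2, and without it that Dnmt3b sum was at 498 CPM. After TMM normalization the log2 differences were -1.04 (SE 0.53) for Dnmt3a and -0.60 (SE 0.45) for Dnmt3b, each with an adjusted p of 1 in edgeR's quasi-likelihood test. Without embryo 1 they were -0.79 for Dnmt3a and 0.018 for Dnmt3b, and without embryo 2 they were -1.29 and -1.21. The lower Dnmt3b of embryo 2 was thus not kept after normalization.

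Dnmt3l was low in both groups, at 4.43 and 8.92 CPM in cluster 3 and 8.75 and 27.8 CPM in endoderm-like cells. Its log2 difference of 1.84 (SE 0.53) had an unadjusted p of 0.0021 in edgeR's quasi-likelihood test and an adjusted p of 0.761. None of the 3 members was called by edgeR in this comparison, nor by DESeq2 or limma, while 1 had an unadjusted p under 0.05 in edgeR. The background was 0.0159%, or 2 genes of 12541. The deepest endoderm-like cell of embryo 2, with 6380557 reads and 6085 detected genes, held 367 of the 407 Dnmt3l reads of its sum of 5 cells. Without it that sum was at 4.85 CPM, below cluster 3, and the mean level over cells of embryo 2 was also lower in endoderm-like cells (2.27) than in cluster 3 (2.91). Without embryo 1 the value was 2.60 and passed the test, in a fit whose E6.5 groups are then 1 sum each, with their spread taken from the other groups, and whose endoderm-like sum is the one dominated by that cell. Without embryo 2 it was 1.06.

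The difference between lineages was itself compared between stages. For Dnmt3l the endoderm-like minus cluster 3 difference of E6.5 exceeded the endoderm-like minus epiblast-like difference of E4.5 by 3.07 on the log2 scale (SE 0.64, adjusted p = 0.0158, edgeR's quasi-likelihood test), so 1 of the 3 members was called beside 0.981% of 12541 genes. This call rests on the deepest cell of embryo 2. Without that cell the value was 1.81 (adjusted p = 0.225), and without embryo 2 of E6.5 it was 2.30 (adjusted p = 0.108). Over 18 alternatives the value ranged from 1.01 to 3.83 and adjusted p from 0.0002 to 0.424. The same differences for Dnmt3a and Dnmt3b were -1.22 (SE 0.66, adjusted p = 0.507) and -1.08 (SE 0.54, adjusted p = 0.473).

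Mesoderm-like cells, the lineage marked by T and Mesp1 that arises at gastrulation, had the least Dnmt3l of the E6.5 groups in embryo 2. Their sum held 21 Dnmt3l reads, or 1.26 CPM, against 8.92 CPM in cluster 3 of that embryo, a ratio of 0.142 (95% counting interval 0.0846 to 0.227). A single cluster 3 cell held 62 of the 119 Dnmt3l reads there and a single mesoderm-like cell 10 of the 21. The ratio was 0.25 without the first of these cells and 0.078 without the second. Dnmt3b was at 1842 CPM in mesoderm-like cells, 1.04 times its level in cluster 3 (95% counting interval 1.02 to 1.06). Dnmt3a was at 241 CPM, 0.851 times its level there (0.814 to 0.89). These are values of 1 embryo with no test, and the mesoderm-like cells all came from 3 of 12 positions in the cell numbering (remainders 10, 11 and 0).

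Endoderm-like cells of E6.5 had less Dnmt3l and more Dnmt3b than those of E4.5 in the summed reads. The Dnmt3b sum was 342 to 590.1 CPM in the 5 E4.5 embryos and 573 and 921 CPM in the 2 E6.5 embryos, so the groups overlapped. For Dnmt3l the sums were 82.1 to 327 CPM and 8.75 and 27.8 CPM, without overlap. For Dnmt3a they were 207 to 744 CPM and 76.8 and 84.04 CPM, also without overlap. The share of all genes without overlap was not counted. The 8 endoderm-like cells of E5.5 had sums of 343 CPM for Dnmt3b, at the low end of the E4.5 range, 0 for Dnmt3l and 89.5 CPM for Dnmt3a. With the stricter minimum of 4000 genes the E5.5 mean level of Dnmt3b in the 4 cells left was 9.04, above the E4.5 endoderm-like mean of 8.76. The low E5.5 value was therefore not kept under that filter, and the part of gene detection in it was not tested. Trophectoderm markers moved with the stage, from a median summed level per cell of 5.21 CPM (0 to 346) at E4.5 to 1149 CPM (433 to 2035) in the E6.5 endoderm-like cells. It was 1101 CPM (0.39 to 2229) in those of E5.5. Of the 10 markers 6 were read in the E4.5 cells, 2 in the E5.5 cells and all 10 in the E6.5 cells. The defining markers Elf5 and Cdx2 had reads in 0 and 1 of 56 cells at E4.5 and in 20 and 19 of 24 at E6.5. Their part in the result was not tested.

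By edgeR's quasi-likelihood test the log2 differences between E6.5 and E4.5 endoderm-like cells were -2.79 (SE 0.70, adjusted p = 0.0135) in Dnmt3l, 1.34 (SE 0.41, adjusted p = 0.0427) in Dnmt3b and -1.75 (SE 0.57, adjusted p = 0.0615) in Dnmt3a. Thus 2 of the 3 members were called, beside 8.65% of 13816 genes. The Dnmt3l call held in 18 of 19 alternatives and was lost without embryo 1 of E6.5 (-2.02). The Dnmt3b call held in 6 of 19, with values from 0.26 to 1.90. It was lost without embryo 2 of E6.5 (0.42), without its deepest cell (0.76), and without the E5.5 embryo (1.34) or any of the 5 E4.5 embryos, whose omission gave 1.26 to 1.47. Dnmt3a gained a call without embryo 5 of E4.5 (-1.91).

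**Figure D3:**
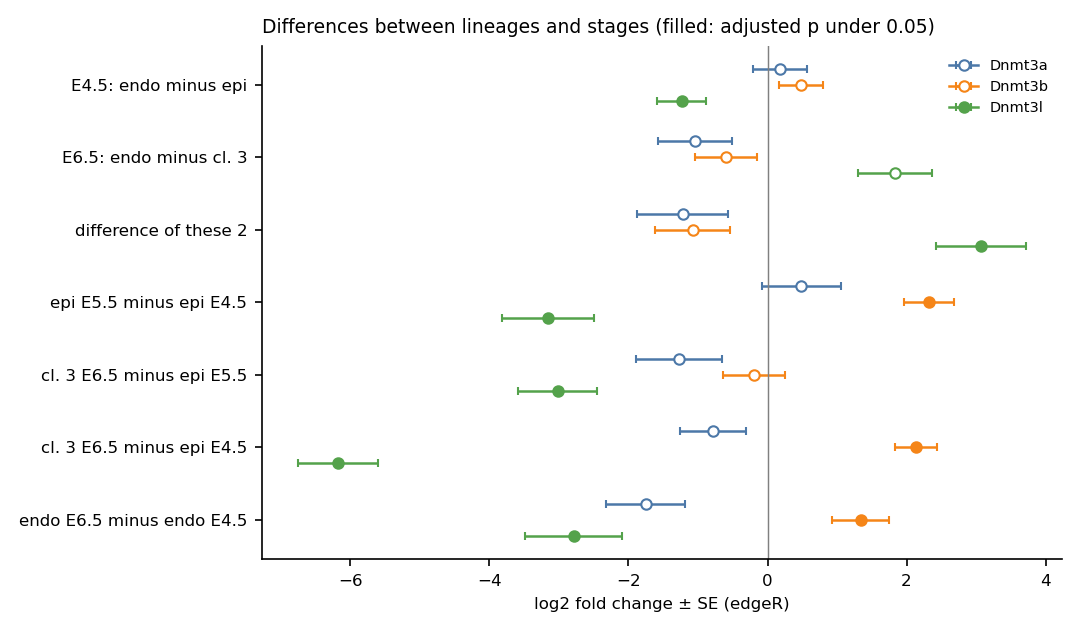
Log2 fold change with its SE for each gene in the 7 comparisons fitted with edgeR's quasi-likelihood test; a filled marker stands for an adjusted p under 0.05. The comparisons of E6.5 cluster 3 and of E5.5 epiblast-like cells with E4.5 epiblast-like cells put Dnmt3b at 2.13 and 2.33 and Dnmt3l at -6.17 and -3.16, while no marker of Dnmt3a is filled.

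The shares of the 3 genes in their summed reads differed between the stages. Dnmt3b took 74.05% of these reads in E5.5 epiblast-like cells and 79.3% in endoderm-like cells of that embryo. At E6.5 it took 85.9% and 87.3% in cluster 3, 87.01% and 89.2% in endoderm-like cells and 88.4% in mesoderm-like cells. Dnmt3l was at or below 2.69% in these E6.5 groups.

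**Figure D4:**
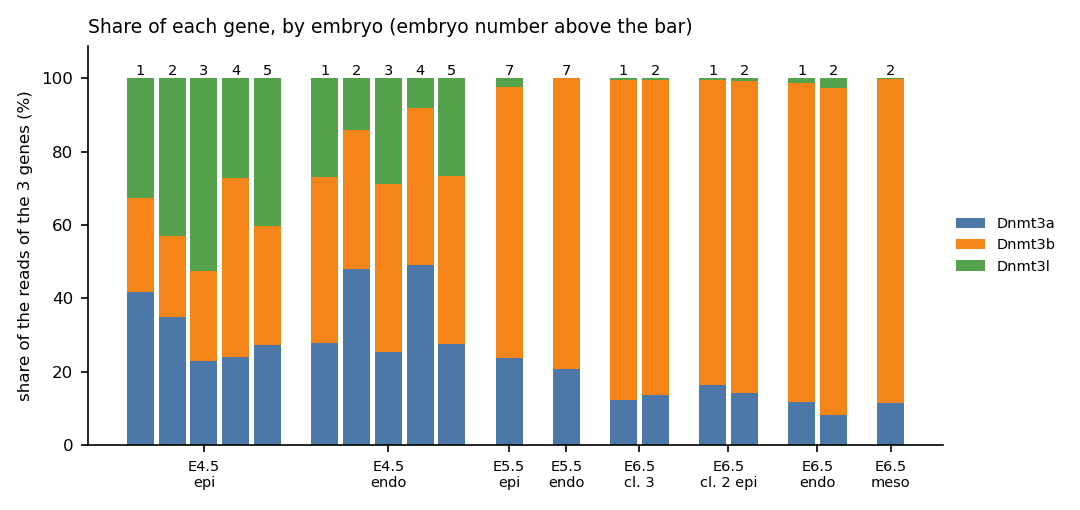
Share (%) of the reads of the 3 genes that fell on each gene, 1 bar per embryo and group, with the embryo number above the bar. Dnmt3l holds 27.1% to 52.4% in E4.5 epiblast-like cells and 8.0% to 28.7% in endoderm-like cells, and Dnmt3b holds at least 83.4% in the E6.5 groups plotted.

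Reads per gene grow with transcript length, so levels were compared between genes per kilobase. The exons of Dnmt3a, Dnmt3b and Dnmt3l cover 16642, 5106 and 2988 bases. On this scale E4.5 epiblast-like cells held 167 ± 53.5 CPM per kb of Dnmt3l, 73.8 ± 22.2 of Dnmt3b and 24.8 ± 15.1 of Dnmt3a (SD, n = 5 embryos). Dnmt3l was above Dnmt3b in 4 of the 5 embryos, while in embryo 4 it was at 77.1 and Dnmt3b at 81.4 CPM per kb, so the ranges overlapped. In E4.5 endoderm-like cells the levels were 73.6 ± 30.7 for Dnmt3l and 92.6 ± 19.5 for Dnmt3b, which lay within each other's spread, and 24.5 ± 13.3 for Dnmt3a. In E6.5 cluster 3 Dnmt3b stood at 310.3 CPM per kb, Dnmt3a at 14.5 and Dnmt3l at 2.23. Taking the longest coding transcript (9685, 4320 and 1822 bases) in place of all exons kept Dnmt3l above Dnmt3b in E4.5 epiblast-like cells, at 273 and 87.2 CPM per kb, but put Dnmt3l at 121 and Dnmt3b at 109.4 in endoderm-like cells.

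The order of the groups differed for each gene. For Dnmt3l the mean of embryo means ran from 8.76 in E4.5 epiblast-like and 6.91 in E4.5 endoderm-like cells to 3.73 in E5.5 epiblast-like cells. Below these came the epiblast-like part of cluster 2 at 3.11, cluster 3 at 2.38 and E6.5 endoderm-like cells at 2.28, which overlapped between neighbours in their embryo means. Mesoderm-like cells followed at 0.73 and E5.5 endoderm-like cells at 0.

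For Dnmt3b, cluster 3 at 10.73, mesoderm-like cells at 10.72, E5.5 epiblast-like cells at 10.65 and the epiblast-like part of cluster 2 at 10.51 could not be ordered beyond the spread of the embryos. E6.5 endoderm-like cells were at 9.36, E4.5 endoderm-like at 8.41, E4.5 epiblast-like at 8.13 and E5.5 endoderm-like at 7.39. The last 3 groups overlapped in single cells, and the E4.5 groups in embryo means. With a stricter minimum of 200000 reads and 4000 genes the 4 E5.5 endoderm-like cells left had a Dnmt3b mean of 9.04, above the E4.5 groups at 8.76 and 8.13, so the last place is not settled.

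For Dnmt3a the order began with E5.5 epiblast-like cells at 8.98, E4.5 endoderm-like cells at 8.28 ± 0.87 and E4.5 epiblast-like cells at 8.11 ± 0.70. Cluster 3 at 7.95, the epiblast-like part of cluster 2 at 7.79 and mesoderm-like cells at 7.67 lay within the range of the E4.5 embryo means. The endoderm-like cells of E6.5 at 6.06 and of E5.5 at 5.22 were lower than every embryo mean of the groups above. With the stricter minimum, and the cells clustered anew, they were at 6.99 and 7.15, in the opposite order.

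Among cells, Dnmt3l was the gene that most often had no read. It was read in 19 of 19 E4.5 epiblast-like cells, 51 of 56 E4.5 endoderm-like cells, 37 of 51 E5.5 epiblast-like cells and 0 of 8 E5.5 endoderm-like cells, where 3 cells taken as the limit of a count of 0 allow a share of up to 37.5%. Cells of an embryo share their source, so these are counts of cells and not of replicates. At E6.5 it was read in 13 of 17 cluster 3 cells, 16 of 24 endoderm-like cells and 7 of 23 mesoderm-like cells. With every cell thinned to 50000 reads these counts were 19, 45, 28 and 0 at E4.5 and E5.5 and 8, 5 and 0 at E6.5. Dnmt3b had a read in every kept cell but 2, both E4.5 endoderm-like cells of embryo 5.

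Dnmt3a and Dnmt3b had a positive correlation over the cells of each group given here, as a description, since cells share their embryo and vary in depth. Pearson r was 0.20 in 19 E4.5 epiblast-like cells and 0.17 in 56 E4.5 endoderm-like cells, where Spearman rho was 0.41 and 0.40. It was 0.41 in 51 E5.5 epiblast-like cells and 0.88 in 8 E5.5 endoderm-like cells. At E6.5 it was 0.82 in the 17 cells of cluster 3, 0.70 in 24 endoderm-like cells and 0.80 in 23 mesoderm-like cells. Dnmt3l had r = 0.75 with the number of detected genes in E4.5 endoderm-like cells and 0.57 in E4.5 epiblast-like cells. In the same 2 groups r with that number was 0.64 and 0.71 for Dnmt3b and 0.10 and 0.12 for Dnmt3a. In E5.5 epiblast-like cells it was 0.23 for Dnmt3l, 0.42 for Dnmt3b and 0.70 for Dnmt3a. One E6.5 cell of embryo 1, outside the epiblast-like part of cluster 2, had 17530 Dnmt3a reads, or 14790 CPM, and was in none of the tests.

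Of the other genes of the pathway, a list of 17, 16 were tested between the E4.5 lineages. In endoderm-like cells 0 of them were higher and 4 lower, beside 8.68% of all genes called, and 7 had an unadjusted p under 0.05 in edgeR. Their median log2 difference was -0.77 beside 0.29 over all genes. The 4 were Tet1, which starts the removal of methylation (-2.52, SE 0.40, adjusted p = 0.000137 in edgeR's quasi-likelihood test), Hells, a chromatin remodeler needed for DNA methylation (-1.55), Trim28, a corepressor of transposable elements (-1.67), and Dppa3, which shields methylated DNA in the early embryo (-2.67). Tet1 was at 283 to 403 CPM in epiblast-like and 31.5 to 127 CPM in endoderm-like sums, without overlap, and the share of all genes without overlap was not counted. Hells lost its call without embryo 3 (-1.31) and without the replicate block (-1.09), and Dppa3 in prefix P1 alone (-2.44). The maintenance genes Dnmt1 (-0.74, adjusted p = 0.415) and Uhrf1 (-0.68, adjusted p = 0.302) did not pass the edgeR test.

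From E4.5 epiblast-like cells to cluster 3, 0 of 17 pathway genes were higher and 3 lower, beside 3.12% of all genes called, with a median log2 difference of -0.58 beside 0.20 over all genes. Tet1 fell by 2.12 on the log2 scale (adjusted p = 0.00471 in edgeR's quasi-likelihood test), from 283 to 403 CPM to 75.3 and 89.01 CPM. Tet2 went from 13.5 to 81.1 CPM to 0.824 and 1.84 CPM, and Dppa3 from 84.97 to 364 CPM to 0.3 and 4.09 CPM. Without embryo 1 of E6.5 the calls of Tet1 (-2.10) and Tet2 (-6.23) were lost, and without embryo 2 of E6.5 that of Tet2 (-4.95). Each was called in 15 of 18 alternatives, and Tet1 was weakest, at -1.31 without a call, with 1 more cluster or the epiblast-like part of cluster 2, while Tet2 was at -3.76 without a call by limma. Dnmt1 (-0.19) and Uhrf1 (-0.44) did not pass.

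At E5.5 against E4.5 epiblast-like cells, where 0.596% of all genes were called, edgeR called 0 of 17 pathway genes (4 at an unadjusted p under 0.05, 2 lower by DESeq2 and 0 by limma), where the median was -0.85 beside 0.05 over all genes. Tet1 was at 126 CPM there, with a difference of -1.42 (adjusted p = 0.291 in edgeR). From E5.5 to cluster 3 edgeR called 1, Dppa3, lower, beside 0.317% of all genes, with a median of 0.14 over the list and 0.14 over all genes. Dppa3 had 6998 reads, or 88.3 CPM, in the E5.5 epiblast-like sum, and its call was lost without embryo 2 or 3 of E4.5 (-5.41 and -5.38) or embryo 2 of E6.5 (-4.48). Over 16 alternatives it was called in 9, with values from -8.35 to -2.77 and adjusted p up to 0.655, the weakest with 1 more cluster.

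Between endoderm-like cells and cluster 3 at E6.5, edgeR called 0 of 16 pathway genes and 0.0159% of all genes (pathway genes: 0 at an unadjusted p under 0.05, 0 by DESeq2 and 0 by limma), with a median of -0.55 beside -0.06 over all genes. For the change of the lineage difference between the stages it also called 0 of 16, beside 0.981% of all genes (4 at an unadjusted p under 0.05, 1 by DESeq2 and 0 by limma), with a median of 0.27 beside -0.47.

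In endoderm-like cells from E4.5 to E6.5, 1 of 16 pathway genes was higher and 2 were lower in edgeR's quasi-likelihood test, beside 8.65% of all genes called. The median log2 difference was -0.24 over the list and -0.12 over all genes. Dnmt1, the maintenance methyltransferase, had a log2 difference of 1.82 (adjusted p = 0.0481), from 23.8 to 77.7 CPM in the E4.5 sums to 65.1 and 126 CPM at E6.5. That call held when embryo 3 of E4.5 or embryo 1 of E6.5 was left out and was lost when any other embryo was, with 0.70 without embryo 2 of E6.5 and 0.19 without the deepest cell of that embryo. Tet2 went from 25.5 to 81.2 CPM to 0 and 1.04 CPM, and Dppa3 from 12.4 to 82.01 CPM to 0 and 2.41 CPM. Over 19 alternatives Dnmt1 was called in 6, Tet2 in 18 and Dppa3 in 17. Without embryo 2 of E6.5 the value of Dppa3 was -3.88, and with Leiden clusters the values of Dppa3 and Tet2 were -2.99 and -4.55, all without a call. Prdm14, a repressor of Dnmt3b in naive pluripotent cells, had 20 reads over the E4.5 epiblast-like sums together. These sums ranged from 0 to 5.62 CPM with a mean of 1.40, so Prdm14 was not read in each of them. It had 3 reads over the E4.5 endoderm-like sums and 0 in the E5.5 and E6.5 sums.

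The genes whose sums followed each member most closely were ranked by Pearson r of log2(CPM + 1) over the 16 sums of embryo and lineage, among 7973 genes. For Dnmt3b they were Cd276 (r = 0.92), an immune checkpoint molecule, Armcx2 (0.90) and Nelfb (0.89), a subunit of the complex that pauses RNA polymerase. For Dnmt3l they were Phf11d (0.91), Fam25c (0.91) and Kat6b (0.90), a histone acetyltransferase. For Dnmt3a they were Tinf2 (0.86), which protects telomeres, Fam98c (0.82) and Pink1 (0.80), a mitochondrial kinase. The sums share embryos and stages, and the ranking is a description.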

How the data were processed

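Smart-seq2 RNA of 264 single cells was analysed, and the bisulfite data of these cells were not used here. The authors deposited raw read counts per gene (22084 genes, Ensembl identifiers), made, per the labels, with Trim Galore 0.4.2, HISAT2 2.1.0 and featureCounts on GRCm38. The annotation and strand setting of the counting are not given in the sources used here. Symbols were matched for 21903 identifiers.

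Cells with at least 50000 reads and 2000 genes were kept. Cells of each stage were clustered (Ward, log2(CPM + 1) of marker genes) into 2, 2 and 4 clusters. A marker counted as raised in a cluster that read it in 50% of its cells or more, with a mean log2(CPM + 1) exceeding that of the remaining cells by 1 or more. A cluster took the name of the list with the most raised markers, given 3 or more, unless its 10 leading genes held more markers of another list. The members, marker lists and pathway lists were chosen with earlier results of these data known. No doublet caller was run, since cells were picked by hand.

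Counts were summed per embryo and lineage (at least 3 cells) and tested with edgeR 4.0.16 (TMM, filterByExpr, quasi-likelihood test, Benjamini-Hochberg adjustment over all genes, threshold 0.05). Lineages of the same embryo come from the same animal, so the embryo was a block there. Stages have different embryos and no block. Paired E4.5 values were tested by exact sign flips over embryos. The genes named are the members, pathway genes past the threshold with Tet1, Dnmt1, Uhrf1 and Prdm14, and the 3 genes most like each member with a mean of at least 10 CPM. Alternatives used DESeq2 1.42.0, limma 3.58.1, RLE size factors, other filters, Leiden clusters (scanpy 1.11.5), other cluster numbers, pseudocounts of 0.1 and 10, thinning, and omission of embryos. After the data were seen, 4 alternatives were added, ratios without the cell with the most reads of a gene, and fits without the 5 cells with both marker sets, with the epiblast-like part of cluster 2 and without the deepest cell of E6.5 embryo 2. The fitting script was tested on simulated data.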

Additional observations from a re-analysis of the deposited data

Results flagged for a closer look

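The E4.5 epiblast-like cells of embryo 4 had a mean Dnmt3l level, log2(CPM + 1), of 7.79, far below the other 4 embryos, which lay between 8.81 and 9.15. The gap was 0.755 of the whole range of the 5 embryos. The endoderm-like cells of the same embryo also had the lowest mean of their group, 5.32. Of 12 such sets of 5 embryos examined, 1 was set apart in this way, and chance alone sets apart about 1 in 20, or 0.6 of 12. Without embryo 4 the E4.5 lineage difference in Dnmt3l was -1.13 in edgeR's quasi-likelihood test, no longer past the threshold, and the mean over cells differed by -1.70.

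The lineage difference in Dnmt3l changed between E4.5 and E6.5 by 3.07 on the log2 scale (adjusted p = 0.0158, edgeR's quasi-likelihood test of the difference itself). At E4.5 the endoderm-like cells had less Dnmt3l in 5 of 5 embryos, and at E6.5 their sums were above those of cluster 3 in both embryos. At E6.5 the levels were between 4.43 and 27.8 CPM, and 1 cell held 90.2% of the Dnmt3l reads of the endoderm-like sum of embryo 2. Without that cell the sum of embryo 2 was at 4.85 CPM, below cluster 3 at 8.92 CPM, so the direction in embryo 2 rests on it. The mean level over cells of embryo 2 was 2.27 in endoderm-like cells and 2.91 in cluster 3. Without the cell the change was 1.81, and the call was lost.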

How the results depend on the processing

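Log2 differences below are of the edgeR comparisons in the report, and the cause of each change was not tested. Over all alternatives, 326 values for the 3 genes kept their direction and side of the threshold, 41 lost a call, 5 gained one and 9 changed sign. Some alternatives left the sums of a comparison unchanged, as did omission of the E5.5 embryo for the lineage comparisons. These repeat its fit and count as kept, here and in the numbers of alternatives given above. Of the mean levels of groups with 2 or 5 embryos, 27 moved by no more than the SD over embryos and 6 by more, all 6 at E6.5, where the stricter filter and Leiden changed the clusters. Groups with 1 embryo have no such SD, and 14 of their 24 values moved, among them E5.5 endoderm-like Dnmt3a from 5.22 to 7.15 and Dnmt3b from 7.39 to 9.04 with the stricter filter. Ratios within 1 embryo were also taken without the cell with the most reads of the gene. Counted were epiblast-like over endoderm-like cells at E4.5 and E5.5 and mesoderm-like cells over cluster 3. Of these, 32 left their counting interval, 3 did not and 5 turned, all at E4.5. The 5 were the epiblast-like over endoderm-like ratios of Dnmt3a in embryos 3 and 5 (both 0.82) and Dnmt3b in embryo 5 (0.56) without an epiblast-like cell, and of Dnmt3b in embryos 1 and 4 (1.05 and 1.16) without an endoderm-like cell. Not counted were other E6.5 ratios, some of which turned in embryo 2. Dnmt3l in endoderm-like cells over cluster 3 went from 3.12 to 0.54 without an endoderm-like cell. Dnmt3b in mesoderm-like cells over the cluster 2 part went from 0.964 to 1.10 without a cell of that part. In the E4.5 lineage comparison Dnmt3l was -1.17 without the replicate block, -1.13 in prefix P1 alone and -1.25 with the epiblast-like part of cluster 2, all without a call, and Dnmt3a turned to -0.061 without the block and -0.24 in prefix P1, where its share difference was -0.45. At E6.5 the Dnmt3l lineage difference was -0.11 with the stricter cell filter. That filter gave 38 endoderm-like and 11 epiblast-like cells, in place of 24 and the 17 of cluster 3, so its E6.5 comparisons are between other groups. Its change between stages was 1.62 by limma, 1.01 with the stricter filter, 2.26 with 1 more cluster, 2.14 with the epiblast-like part of cluster 2 and 1.81 without the deepest cell, and 3.39 without the block, all without a call. From E4.5 to cluster 3, Dnmt3a was 0.060 with 1 more cluster. From E4.5 to E5.5, Dnmt3l lost its call by limma (-2.99), with 1 more cluster (-3.28) and with the cluster 2 part (-3.16). From E5.5 to cluster 3, Dnmt3l lost it by limma (-2.60), with the stricter filter (-1.91), 1 more cluster (-2.01) and the cluster 2 part (-2.10), and Dnmt3b was 0.15 and 0.23 under the last 2. In endoderm-like cells over time, Dnmt3b lost its call by limma (0.72), with 1 more cluster or without the both-marker cells (1.34 each), with Leiden clusters (0.26), without the deepest cell (0.76) and with the replicate block (0.92), while Dnmt3a gained one by DESeq2 (-1.68), without a filter (-1.67) and by limma (-1.79). The block over stages used embryo numbers, which pair nothing: deviations of same-numbered embryos had correlations of -0.0032 to 0.0367.

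The number of genes called for lineage at E4.5 was 2439 by DESeq2, 1864 by limma, 380 in prefix P1 and 658 in prefix P2. For lineage at E6.5 it was 49 with 1 more cluster, 24 by DESeq2 and with the stricter filter, 61 with the cluster 2 part, 42 without a filter, 1 with RLE size factors, without the both-marker cells and without the deepest cell, and 0 by limma and by edgeR without the block (491 and 783 at an unadjusted p under 0.05). For the change between stages it was 589 by DESeq2, 32 by limma, 335 without a filter and 64 without the deepest cell. From E4.5 to cluster 3 it was 790 with 1 more cluster, 1124 by DESeq2, 1454 by limma and 682 without a filter. From E4.5 to E5.5 it was 24, 459, 516 and 171 in that order, 49 with Leiden clusters and 25 with the cluster 2 part. From E5.5 to cluster 3 it was 237 by DESeq2, 291 by limma, 100 without a filter and 22 with the cluster 2 part. In endoderm-like cells over time it was 1830 by DESeq2, 158 with Leiden clusters and 387 with the replicate block. Leiden clustering left no E6.5 epiblast group, so comparisons with cluster 3 could not be fitted.

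Leaving out 1 embryo at a time gave these ranges for Dnmt3a, Dnmt3b and Dnmt3l in that order. They were -0.19 to 0.70, 0.26 to 0.65 and -1.27 to -1.13 for lineage at E4.5. They were -1.29 to -0.79, -1.21 to 0.018 and 1.06 to 2.60 for lineage at E6.5, and -1.74 to -0.85, -1.68 to -0.47 and 2.30 to 3.83 for the change between the stages. From E4.5 to cluster 3 they were -1.05 to -0.25, 1.95 to 2.31 and -6.71 to -5.84, from E4.5 to E5.5 0.27 to 1.02, 2.19 to 2.50 and -3.37 to -3.00, and from E5.5 to cluster 3 -1.50 to -1.13, -0.33 to -0.12 and -3.55 to -2.68. In endoderm-like cells over time they were -2.28 to -1.36, 0.42 to 1.90 and -4.48 to -2.02. For the paired E4.5 means they were -0.15 to 0.49, 0.03 to 0.62 and -1.98 to -1.68, and for the shares 0.45 to 10.3, 10.8 to 17.7 and -21.4 to -15.6 percentage points. The number of genes called then ranged from 715 to 1306 for lineage at E4.5, from 2 to 276 for lineage at E6.5 and from 88 to 467 for the change between them. It ranged from 150 to 403 for cluster 3 against E4.5, from 63 to 84 for E5.5 against E4.5, from 29 to 61 for cluster 3 against E5.5 and from 239 to 1596 for endoderm-like cells over time.

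With 1 embryo at E5.5 and 2 at E6.5, each later level rests on few animals, and stage cannot be told apart from label prefix. The Dnmt3l sums of E6.5 rest on 21 to 407 reads, and without molecular identifiers these are not independent molecules. Where cells of a lineage were few, a sum can follow 1 deep cell.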
